A study of Mus musculus with 31 samples.

Results

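Monosome-pool RNA of mouse neocortex whose labels call it a conditional knockout (cKO) for HuR was compared between the day of birth (P0) and embryonic day 13 (E13). The comparison rests on 5 of the 31 libraries in the series, 2 from P0 and 3 from E13, which were chosen by their labels for genotype, age and fraction. All 12302 genes with a mean of at least 1 FPKM over the 16 libraries labelled cKO were tested. FPKM gives the fragments of a transcript scaled to its length and to the size of the library. HuR (Hu antigen R) is the RNA-binding protein encoded by Elavl1. The labels give the tissue as neocortex and do not name the Cre driver, the part of Elavl1 removed, the strain, or whether animals were pooled. Lysates of whole cortex were spun through a sucrose gradient and collected as 14 fractions. The monosome pool was made of fractions 4 to 7, where free subunits and single ribosomes run, and the polysome pool of fractions 9 to 12. Groups used beside the monosome libraries were total lysate RNA labelled cKO (2 from E13, 3 from P0), polysome RNA labelled cKO (3 and 3) and monosome RNA labelled wild type (WT; 2 and 3).

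The monosome region of a gradient holds mRNAs that carry a single ribosome or a ribosomal subunit and can hold other complexes of similar size, whereas polysomes are mRNAs carrying several ribosomes at once. HuR binds AU-rich and U-rich stretches in mRNAs and is known for effects on their stability, export and translation. In the embryonic neocortex radial glia divide next to the ventricle and give rise to neurons, deep layers first and upper layers later, partly through intermediate progenitors. Around birth neurons extend axons and begin to form synapses, while production of astrocytes and oligodendrocyte precursors sets in.

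Library sums of FPKM in the 5 monosome libraries lay between 873533 and 1130650, with 13698 to 16566 genes above 0. The tables hold no counts, so depth in fragments is unknown; from the steps between low values, depth relative to the median of the 5 lay between 0.735 and 1.21. Across genes, replicate libraries correlated at 0.951 to 0.971 at E13 and 0.989 at P0. Emx1, a marker of the dorsal forebrain, measured 26.7, 77.7 and 36.8 FPKM at E13 and 8.28 and 10.9 FPKM at P0. The hindbrain and spinal cord genes Hoxa2 and Hoxb4 and the midbrain-hindbrain gene En2 were at or near 0, with Hoxa2 listed at 0 in all 31 libraries. The Y-linked gene Eif2s3y measured 12.2, 0.195 and 8.15 FPKM at E13 and 44.6 and 14.2 FPKM at P0, lowest in E13 c1; the labels do not give the sex of the tissue, and its part in the age difference was not tested.

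Elavl1, the targeted gene (chromosome 8, 4284781 to 4325140 in RefSeq on GRCm38.p6), measured 83.9, 80.0 and 82.03 FPKM at E13 and 29.9 and 24.5 FPKM at P0 in the libraries labelled cKO, given throughout in the order of columns c0, c1 and c2. All P0 values lay below all E13 values, with a log2 difference of -1.56 ± 0.23 (SE, adjusted p = 2.43e-05). The WT monosome libraries held 42.4 and 13.5 FPKM at E13 and 10.3, 12.3 and 8.28 FPKM at P0. In monosome RNA the libraries labelled cKO thus held more Elavl1 FPKM than WT at either age. Polysome RNA labelled cKO held 28.3, 29.9 and 29.996 FPKM at E13 and 15.99, 19.003 and 22.6 FPKM at P0, beside 60.6 and 42.4 FPKM at E13 and 21.5, 26.2 and 21.8 FPKM at P0 in WT, lower at E13 and overlapping at P0. Total RNA labelled cKO held 55.4 and 42.5 FPKM at E13 and 17.8, 25.1 and 28.5 FPKM at P0, beside 28.5 and 39.5 FPKM at E13 and 13.5, 15.2 and 15.2 FPKM at P0 in WT, higher at either age. The direction against WT therefore differed between fractions. Values labelled cKO and WT may have been scaled separately, and levels were not tested between them. The tables hold no exon values, so the deleted part was not examined. Of its neuronal paralogs, which bind similar sequences, Elavl2 measured 15.7, 25.5 and 20.2 FPKM at E13 and 41.7 and 30.6 FPKM at P0. Elavl3 measured 15.2, 33.0 and 24.96 FPKM at E13 and 143 and 137 FPKM at P0, and Elavl4 12.5, 11.7 and 13.0 FPKM at E13 and 32.8 and 24.4 FPKM at P0. Both P0 libraries were above all 3 E13 libraries for each of these paralogs, opposite to Elavl1. For Elavl2 the gap was small, from 25.5 FPKM in E13 c1 to 30.6 FPKM in P0 c1. The groups did not overlap in 8648 of the 12302 genes tested, so separate groups alone do not set these paralogs apart.

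The question of the main comparison was which RNAs of the monosome pool differ between early neurogenesis and birth. Of the 12302 genes, 3231 rose (26.3%) and 2755 fell (22.4%) at P0 by limma's moderated test with an adjusted p under 0.05, and the median log2 difference over all genes was 0.03. Differences are on the log2(FPKM + 1) scale, as P0 minus E13 with their standard errors (SE), and understate the change of genes near or under 1 FPKM. The filter used the mean over both ages and all fractions. A gene under 1 FPKM in all libraries of an age thus entered only through the other age. Among the called genes, 2472 rose and 1798 fell by more than 2-fold on that scale. In 8648 genes the 3 E13 and 2 P0 values did not overlap, and 5952 of those were called. The labels do not say that libraries came from separate animals or litters, and p-values therefore reflect only how these libraries vary, which may be technical.

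The 10 genes named for the largest increases were led by a receptor subunit. Gabra5, a subunit of GABA-A receptors (chromosome 7, 57407669 to 57591016), measured 0, 1.54 and 0.988 FPKM at E13 and 108 and 100.0 FPKM at P0, a difference of 5.94 ± 0.33 (SE, adjusted p = 5.98e-10). Camk2b, the beta subunit of a calcium-dependent kinase at synapses (chromosome 11, 5969629 to 6066357), measured 0.121, 7.30 and 1.10 FPKM at E13 and 118 and 115 FPKM at P0 (5.45 ± 0.52, adjusted p = 1.7e-07). For both genes the P0 values exceeded every E13 value more than 10-fold. Syt4 and Syt16, members of the synaptotagmin family, measured 0.946, 2.10 and 0.919 FPKM at E13 and 82.4 and 69.2 FPKM at P0 and, for Syt16, 0.363, 3.50 and 1.55 FPKM at E13 and 88.8 and 94.2 FPKM at P0, with differences of 5.08 ± 0.32 and 5.21 ± 0.43. Nxph3, a ligand of neurexins (chromosome 11, 95509845 to 95514565), measured 0.160, 1.63 and 1.78 FPKM at E13 and 61.8 and 78.1 FPKM at P0 (5.11 ± 0.32). Ppp2r2c, a regulatory subunit of protein phosphatase 2A (chromosome 5, 36866846 to 36955078), measured 2.23, 5.96 and 4.52 FPKM at E13 and 183 and 207 FPKM at P0 (5.30 ± 0.37). Each of these genes was at single-digit FPKM in every E13 library. Adap1, a phosphoinositide-binding protein of neurons (chromosome 5, 139271876 to 139325763), measured 0.929, 3.37 and 1.42 FPKM at E13 and 95.5 and 112 FPKM at P0 (5.25 ± 0.30). Bend6, a nuclear protein reported to act on Notch targets (chromosome 1, 33852052 to 33907933), measured 7.95, 9.89 and 6.27 FPKM at E13 and 336 and 389 FPKM at P0 (5.35 ± 0.42). Eef1a2, the neuronal and muscle form of elongation factor 1 alpha (chromosome 2, 181141758 to 181157015), measured 0.654, 3.56 and 2.13 FPKM at E13 and 131 and 134 FPKM at P0 (5.54 ± 0.48). Ptgds, a prostaglandin D synthase of meninges and choroid plexus (chromosome 2, 25466709 to 25470110), measured 1.81, 12.1 and 1.39 FPKM at E13 and 275 and 192 FPKM at P0 (5.70 ± 0.53 (SE, adjusted p = 1.25e-07)). The E13 library c1 was the highest of its group for all of these genes except Nxph3. It stayed below both P0 libraries, because the rule for naming genes required separate groups.

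The 10 genes named for the largest decreases were led by 3 embryonic globins. Hbb-y, an embryonic beta globin (chromosome 7, 103851754 to 103853207), measured 2952, 2338 and 2123 FPKM at E13 and 0 and 6.41 FPKM at P0 (-9.81 ± 0.62 (SE, adjusted p = 1.87e-09)). Hba-x, the embryonic alpha globin (chromosome 11, 32276600 to 32278116), measured 2050.1, 1721 and 874 FPKM at E13 and 0.229 and 1.94 FPKM at P0 (-9.58 ± 0.53). Hbb-bh1 (chromosome 7, 103841638 to 103843162) measured 915, 355 and 243 FPKM at E13 and 0 and 0.517 FPKM at P0 (-8.45 ± 0.65). Globins come from circulating red cells, and their close paralogs make the split of fragments between them uncertain. Hmga2, a chromatin protein of early progenitors (chromosome 10, 120361268 to 120476469), measured 203, 171 and 147 FPKM at E13 and 0.170 and 0.317 FPKM at P0 (-7.12 ± 0.31 (SE, adjusted p = 3.81e-11)). Its P0 values lay under the 1 FPKM added before taking logs, so the difference mostly reflects the E13 level. Crabp2, a retinoic acid carrier (chromosome 3, 87948693 to 87953372), measured 159, 153 and 124 FPKM at E13 and 3.49 and 2.17 FPKM at P0 (-5.27 ± 0.34). Rspo1, a Wnt potentiator (chromosome 4, 124986401 to 125009102), measured 231, 134 and 91.0 FPKM at E13 and 3.75 and 4.68 FPKM at P0 (-4.78 ± 0.39). Gmnn, the replication licensing inhibitor geminin (chromosome 13, 24751845 to 24761937), measured 50.5, 133 and 88.1 FPKM at E13 and 3.39 and 2.98 FPKM at P0 (-4.35 ± 0.34). Cks2, a partner of cyclin-dependent kinases (chromosome 13, 51645232 to 51650662), measured 572, 480.1 and 483 FPKM at E13 and 28.1 and 25.4 FPKM at P0 (-4.20 ± 0.32). Birc5, which encodes survivin of the mitotic chromosomal passenger complex (chromosome 11, 117849237 to 117855743), measured 279.5, 199 and 226 FPKM at E13 and 12.5 and 13.9 FPKM at P0 (-4.04 ± 0.29). Slc25a37, the mitochondrial iron carrier of red cell precursors (chromosome 14, 69241848 to 69285544), measured 75.4, 52.2 and 40.3 FPKM at E13 and 2.12 and 2.62 FPKM at P0 (-4.04 ± 0.34). For these 10 genes no P0 value reached any E13 value, which the rule for naming genes required. The calls of Elavl1 and of all 20 genes named here stood without each monosome library in turn and under the other pseudocount, scaling and block tried.

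**Figure D1:**
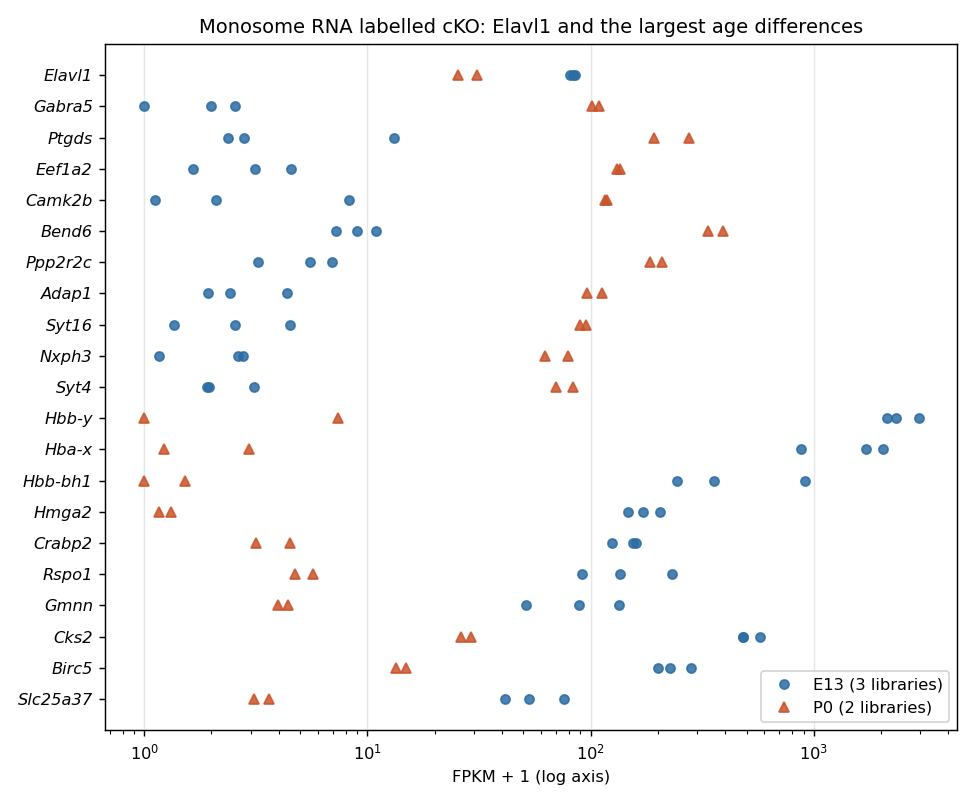
FPKM + 1 on a log axis for Elavl1, the 10 genes that rose most and the 10 that fell most in monosome RNA labelled cKO; circles are the 3 E13 libraries and triangles the 2 P0 libraries. In every row the groups of symbols are separate, which the rule for naming genes required of all but Elavl1. At P0 Gabra5 lies at 100.0 and 108 FPKM and Hmga2 at 0.170 and 0.317 FPKM.

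Most genes of cell division fell. Of 34 tested members of the list of mitosis and cell cycle control (35 in all), 31 fell and 0 rose, with a median of -2.48 beside 0.03 over all genes. Cdk2, a kinase of the entry into S phase, measured 28.8, 31.3 and 33.9 FPKM at E13 and 3.34 and 3.09 FPKM at P0 (-2.94 ± 0.20 (SE, adjusted p = 3.76e-09)). Foxm1, a transcription factor for mitotic genes, measured 85.7, 115 and 84.1 FPKM at E13 and 9.30 and 14.0 FPKM at P0 (-2.93 ± 0.22). Ube2c, Cenpa and Cdc25c, which act in mitotic proteolysis, at the centromere and on the mitotic kinase, had differences of -3.54 ± 0.28, -3.69 ± 0.32 and -2.77 ± 0.25. The 3 members not called were Mki67 (-1.004 ± 0.42) and the kinase inhibitors Cdkn1c (0.14 ± 0.42) and Cdkn1b (0.00 ± 0.29). Among 39 DNA replication genes 36 fell and 0 rose (median -2.22). Tk1, thymidine kinase, measured 53.2, 48.2 and 48.3 FPKM at E13 and 3.91 and 4.57 FPKM at P0 (-3.28 ± 0.21 (SE, adjusted p = 1.87e-09)). Gins2 and Gins3 of the replicative helicase, Rrm2 of ribonucleotide reductase and Tyms, thymidylate synthase, had differences of -3.22 ± 0.28, -2.66 ± 0.26, -2.77 ± 0.27 and -2.27 ± 0.23. Leaving out 1 monosome library at a time left 29 to 32 mitosis and 33 to 38 replication genes called lower.

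Radial glia genes moved both ways. Of 22 tested, 14 fell and 5 rose (median -1.52). The share that fell was above the 22.4% of all genes, and the share that rose was not above the 26.3%. Id4, an inhibitor of neuronal differentiation factors, measured 191, 119 and 191 FPKM at E13 and 9.69 and 9.86 FPKM at P0 (-3.93 ± 0.27 (SE, adjusted p = 3.7e-09)). Gli3, a mediator of Hedgehog signals, measured 29.4, 21.3 and 24.5 FPKM at E13 and 1.77 and 1.99 FPKM at P0 (-3.17 ± 0.26). Pax6, Sox2, Emx2 and Dach1, transcription factors of cortical progenitors, had differences of -2.36 ± 0.26, -1.81 ± 0.22, -2.61 ± 0.27 and -3.08 ± 0.26. The 5 that rose were Slc1a3 (2.20 ± 0.43), Aldoc (1.89 ± 0.37), Tnc (2.51 ± 0.55), Ptprz1 (1.82 ± 0.52) and Fabp7 (0.78 ± 0.32). Slc1a3, a glutamate transporter, and Aldoc, a glycolytic enzyme, are also used as astrocyte markers, and Tnc and Ptprz1 are known from later radial glia. Among 13 tested genes of intermediate progenitors and neurogenesis (14 in all), 9 fell and 2 rose (median -1.93). Nhlh1, a neurogenic bHLH factor, measured 50.2, 49.1 and 51.9 FPKM at E13 and 2.06 and 4.43 FPKM at P0 (-3.66 ± 0.26 (SE, adjusted p = 5.99e-09)). Neurog2, the main proneural factor of the dorsal forebrain, measured 47.7, 37.0 and 50.8 FPKM at E13 and 5.76 and 7.31 FPKM at P0 (-2.61 ± 0.31). Mfng, a modifier of Notch, and Btg2, an antiproliferative gene of neurogenic divisions, had differences of -3.01 ± 0.25 and -1.93 ± 0.27, whereas Neurod1 (1.09 ± 0.30) and Insm1 (1.17 ± 0.43) rose. Of 30 tested genes of Notch, Wnt and Hedgehog signalling (31 in all), 19 fell and 2 rose (median -1.50). Wnt8b, a Wnt ligand of the medial cortex, measured 24.0, 15.8 and 17.0 FPKM at E13 and 0.273 and 0.513 FPKM at P0 (-3.82 ± 0.25 (SE, adjusted p = 2.87e-09)), and Smo, the Hedgehog transducer, measured 191, 195 and 160.1 FPKM at E13 and 21.2 and 23.3 FPKM at P0 (-2.97 ± 0.21). The Notch targets Hey1 and Hes1 had differences of -2.39 ± 0.20 and -2.47 ± 0.33. The members that rose were Dkk3 (2.18 ± 0.43), a divergent Dickkopf protein, and Jag2 (1.11 ± 0.35), a Notch ligand.

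Most genes of cortical neuron types rose. Among 12 tested upper-layer genes (13 in all) 10 rose and 1 fell (median 2.45), and among 12 deep-layer genes 9 rose and 0 fell (median 1.12). Mef2c, a transcription factor of maturing neurons, measured 1.01, 3.55 and 1.76 FPKM at E13 and 106 and 81.0 FPKM at P0 (5.00 ± 0.34 (SE, adjusted p = 3.56e-09)). Pou3f1 and Lmo4 had differences of 2.59 ± 0.29 and 2.75 ± 0.31, and Lhx2, which progenitors also express, fell (-1.54 ± 0.32). In deep layers, Crym, a thyroid hormone binding protein, measured 4.09, 3.84 and 2.44 FPKM at E13 and 107 and 79.0 FPKM at P0 (4.41 ± 0.40 (SE, adjusted p = 7.58e-08)), and Ldb2, a LIM cofactor of corticospinal neurons, 5.30, 6.77 and 3.30 FPKM at E13 and 46.4 and 49.4 FPKM at P0 (3.04 ± 0.26). Bcl11b, the corticospinal factor, measured 3.87, 3.82 and 4.96 FPKM at E13 and 13.3 and 9.12 FPKM at P0 (1.21 ± 0.26). Fezf2 (0.40 ± 0.31), Tbr1 (-0.15 ± 0.33) and Tle4 (-0.09 ± 0.23) were not called. Interneuron genes, whose cells migrate into the cortex from the ventral forebrain, rose for 12 of 14 tested members (15 in all), with 1 lower (median 1.99). Lhx6 measured 2.47, 2.11 and 1.48 FPKM at E13 and 50.2 and 53.9 FPKM at P0 (4.15 ± 0.22 (SE, adjusted p = 5.98e-10)), the neuropeptide Npy 7.94, 8.81 and 2.83 FPKM at E13 and 214 and 184 FPKM at P0 (4.84 ± 0.40), and the neuropeptide Sst 4.28, 1.45 and 0.875 FPKM at E13 and 87.9 and 77.1 FPKM at P0 (4.85 ± 0.41). The GABA-synthesizing enzyme Gad1 measured 0.0251, 0.853 and 0.850 FPKM at E13 and 13.2 and 10.8 FPKM at P0 (3.09 ± 0.29), and Sp8 fell (-2.51 ± 0.27). In bulk tissue, more cells of a type and more RNA per cell cannot be told apart. Of 7 Cajal-Retzius genes tested, 3 rose and 3 fell; Reln measured 0.473, 1.30 and 2.47 FPKM at E13 and 5.02 and 5.67 FPKM at P0 (1.48 ± 0.58 (SE, adjusted p = 0.0428)), and its call ended without E13 c0, E13 c1 or either P0 library. Without P0 c1 the counts were 7 upper-layer and 8 interneuron genes, and without P0 c0 6 deep-layer genes.

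Synaptic genes rose in nearly every class examined. Of 25 genes of vesicle release, 22 rose and 0 fell (median 2.21), a count that was 22 without any single monosome library. Snap25, a SNARE of the presynaptic membrane, measured 4.72, 3.53 and 2.50 FPKM at E13 and 79.2 and 41.4 FPKM at P0 (3.70 ± 0.31 (SE, adjusted p = 3.41e-08)). The calcium sensor Syt1 measured 2.30, 3.78 and 1.90 FPKM at E13 and 41.4 and 35.1 FPKM at P0 (3.45 ± 0.36), and Cplx1, which clamps the fusion machinery, 1.78, 7.95 and 6.42 FPKM at E13 and 84.2 and 89.4 FPKM at P0 (3.95 ± 0.42). Rab3a, Stx1a and the vesicular glutamate transporter Slc17a7 had differences of 2.59 ± 0.28, 2.06 ± 0.24 and 2.26 ± 0.27. Syt11 (0.38 ± 0.35), Vamp1 (-0.02 ± 0.32) and Slc17a6 (0.03 ± 0.37) were not called. Among 23 tested postsynaptic scaffold and signalling genes (25 in all) 16 rose and 3 fell (median 1.89). The scaffold Dlg2 measured 0.1998, 0.780 and 0.331 FPKM at E13 and 40.2 and 28.0 FPKM at P0 (4.61 ± 0.25 (SE, adjusted p = 5.98e-10)), and its binding partner Dlgap1 0, 0.541 and 0.307 FPKM at E13 and 25.2 and 24.9 FPKM at P0 (4.37 ± 0.24). Shank3, another scaffold, had a difference of 2.11 ± 0.25. The 3 lower members were Dlg1 (-1.06 ± 0.23), Dlg3 (-0.75 ± 0.22) and Homer3 (-1.11 ± 0.28).

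Receptors and channels followed the same direction. Over all members, tested or not, each of these lists had a median under 1 FPKM in every E13 library labelled cKO. A member under 1 FPKM in all of those passed the filter of a mean of at least 1 FPKM only through its P0 values. For such members the filter itself favours a rise, so the counts below are not a test of direction. Glutamate receptor genes rose for 14 of 16 tested members (22 in all; median 1.80), with 0 lower. Gria1, an AMPA receptor subunit, measured 0.372, 0.845 and 0.159 FPKM at E13 and 18.1 and 15.9 FPKM at P0 (3.65 ± 0.30 (SE, adjusted p = 2.76e-08)), and Grin1, the obligatory NMDA receptor subunit, 0.126, 0.487 and 0.105 FPKM at E13 and 9.81 and 10.8 FPKM at P0 (3.20 ± 0.41). Grin2b (0.85 ± 0.55) and Grik2 (0.82 ± 0.35) were not called. GABA receptor and chloride transporter genes rose for 13 of 14 tested members (17 in all; median 2.31). The chloride importer Slc12a2 was the one not called (0.62 ± 0.33). Among 22 tested voltage-gated channel genes (26 in all) 20 rose and 0 fell (median 1.93). Hcn2, a pacemaker channel, measured 0, 0.656 and 0.503 FPKM at E13 and 17.3 and 26.0 FPKM at P0 (4.04 ± 0.32 (SE, adjusted p = 1.91e-08)). The sodium channel subunits Scn3b and Scn2a1 had differences of 3.76 ± 0.38 and 2.87 ± 0.30.

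Cytoskeletal genes of axons and dendrites rose for 25 of 28 tested members (29 in all), with 0 lower and a median of 2.38. Stmn2, a tubulin-binding protein of growth cones, measured 51.7, 83.0 and 82.2 FPKM at E13 and 861 and 729 FPKM at P0 (3.47 ± 0.29 (SE, adjusted p = 3.02e-08)). Mapt, which encodes tau, measured 3.73, 14.1 and 6.11 FPKM at E13 and 215 and 146 FPKM at P0 (4.48 ± 0.45), and the neurofilament light chain Nefl 0, 1.25 and 1.59 FPKM at E13 and 19.6 and 22.9 FPKM at P0 (3.62 ± 0.39). Dcx, a microtubule protein of migrating neurons, and the growth cone protein Gap43 had differences of 3.58 ± 0.39 and 2.80 ± 0.33. Basp1 (0.92 ± 0.43), Marcks (0.26 ± 0.28) and Stmn1 (0.22 ± 0.31) were not called. Axon guidance and adhesion genes rose for 20 of 30 tested members (32 in all) and fell for 1, Unc5b (-1.04 ± 0.28), with a median of 1.81. The semaphorin Sema3c measured 0.722, 0.918 and 1.19 FPKM at E13 and 21.0 and 20.4 FPKM at P0 (3.49 ± 0.28 (SE, adjusted p = 2.22e-08)), and the netrin receptor Unc5a 0.444, 2.25 and 1.13 FPKM at E13 and 24.0 and 34.7 FPKM at P0 (3.79 ± 0.32).

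**Figure D2:**
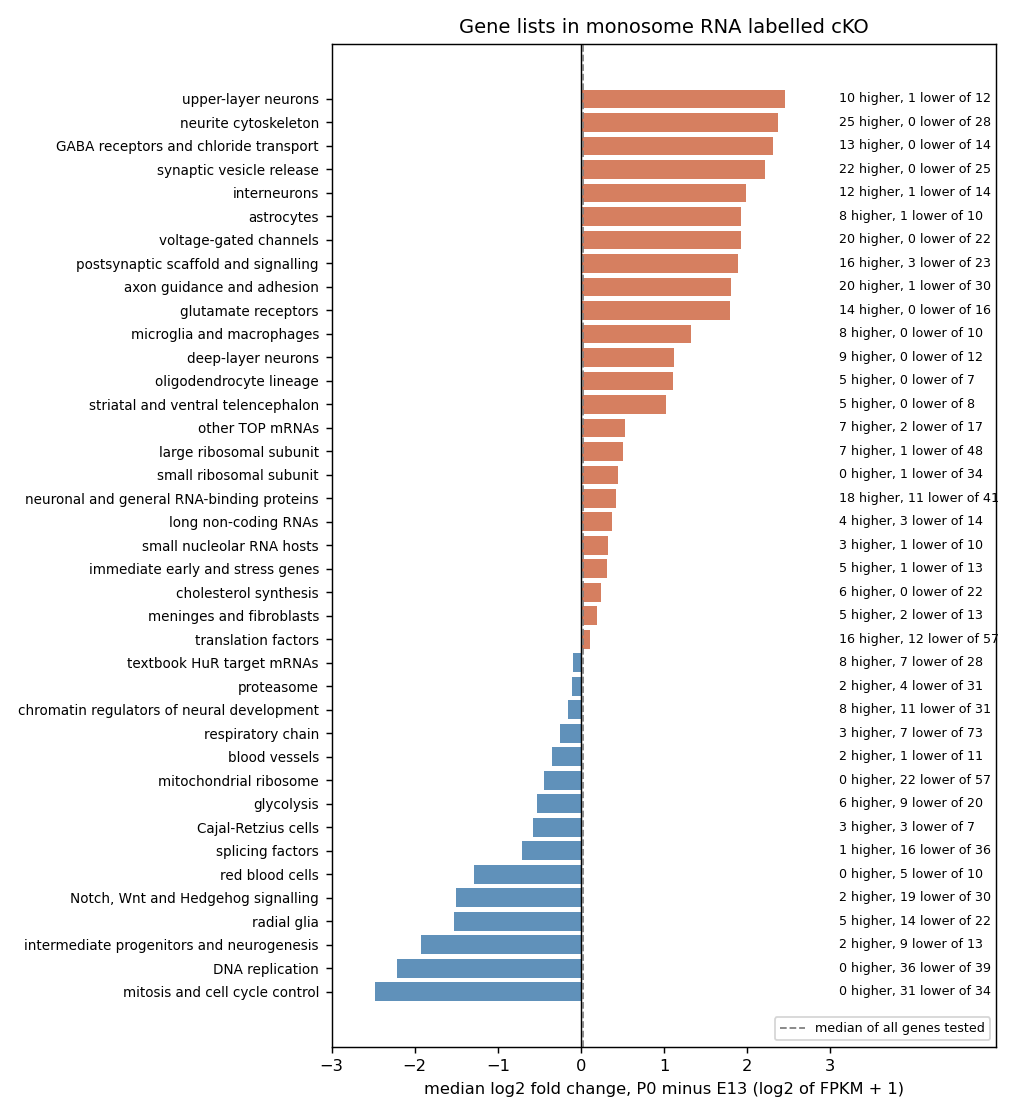
Median log2 difference (P0 minus E13, log2 of FPKM + 1) of each gene list with at least 7 tested members in monosome RNA labelled cKO, with the counts of members called at the right; the dashed line is the median of all genes, 0.03. The lists of upper-layer neurons (2.45) and neurite cytoskeleton (2.38) are at the top, and those of DNA replication (-2.22) and mitosis (-2.48) at the bottom.

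Glial genes, low at E13, rose by P0. Among 10 tested astrocyte genes (12 in all) 8 rose and 1 fell (median 1.93), and their summed level went from 62.2 to 83.9 FPKM over the E13 libraries to 257 and 274 FPKM at P0. Gfap, the astrocyte intermediate filament, measured 0, 0.287 and 0.249 FPKM at E13 and 12.3 and 11.3 FPKM at P0 (3.45 ± 0.28 (SE, adjusted p = 2.12e-08)), and Apoe, a lipid carrier, 4.47, 8.77 and 5.32 FPKM at E13 and 85.6 and 86.8 FPKM at P0 (3.65 ± 0.40). Sox9, which progenitors share, fell (-1.51 ± 0.28). Of 7 tested oligodendrocyte lineage genes (12 in all) 5 rose (median 1.11), with Olig1 at 1.04, 1.36 and 0.475 FPKM at E13 and 15.8 and 14.6 FPKM at P0 (3.08 ± 0.35 (SE, adjusted p = 1.14e-06)) and the precursor receptor Pdgfra at 0.878, 0.852 and 1.30 FPKM at E13 and 4.98 and 4.69 FPKM at P0 (1.54 ± 0.42). The myelin genes Mbp (0.55 ± 0.24) and Cnp (-0.49 ± 0.35) were not called.

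Markers of cells that do not arise from dorsal cortical progenitors were measured beside these lists. Microglia and macrophage genes rose for 8 of 10 tested members (13 in all; median 1.33), or 5 without P0 c0, with a summed level of 35.3 to 76.3 FPKM at E13 and 109 and 138 FPKM at P0. The complement genes C1qa and C1qc had differences of 1.98 ± 0.36 and 1.98 ± 0.33. Blood vessel genes summed to 57.0 to 68.9 FPKM at E13 and 60.6 and 61.2 FPKM at P0. Of 11 tested (13 in all), 2 rose and 1 fell: the organic anion transporter Slco1c1 measured 0.842, 0.313 and 0.295 FPKM at E13 and 17.0 and 19.4 FPKM at P0 (3.71 ± 0.27 (SE, adjusted p = 6.17e-09)), and the glucose transporter Slc2a1 31.1, 23.7 and 28.0 FPKM at E13 and 8.27 and 8.63 FPKM at P0 (-1.59 ± 0.35). The third, the pericyte gene Rgs5, had a difference of 1.13 ± 0.30, a call that ended without P0 c0. The shares of blood vessel genes that rose and fell were under the 26.3% and 22.4% of all genes. In 13 meningeal and fibroblast genes 5 rose and 2 fell, with sums of 282 to 395 FPKM at E13 and 409 and 526 FPKM at P0. Striatal and ventral forebrain genes summed to 17.1 to 27.9 FPKM at E13 and 66.7 and 68.5 FPKM at P0, and 5 of 8 tested (14 in all) rose. Thalamic and hypothalamic genes summed to 30.1 to 39.2 FPKM at E13 and 9.68 and 10.4 FPKM at P0, and 3 of 4 tested (10 in all) fell. Choroid plexus genes fell for 2 of 6 tested members (8 in all), Rspo1 and Otx2 (-2.32 ± 0.40), while Ttr, its main secreted product, measured 74.7, 157 and 37.4 FPKM at E13 and 449.9 and 217 FPKM at P0 (2.02 ± 0.98 (SE, adjusted p = 0.0956)) and was not called. Red blood cell genes fell for 5 of 10 tested members (14 in all) and their sum went from 3747 to 6711 FPKM at E13 to 360.0 and 419 FPKM at P0. The adult globin entry Beta-s, which is outside that list and its sum, measured 14.8, 20.1 and 49.6 FPKM at E13 and 446 and 364 FPKM at P0 (3.98 ± 0.53 (SE, adjusted p = 6.93e-06)). The adult globin Hba-a1 measured 482, 475 and 310.4 FPKM at E13 and 215 and 214 FPKM at P0 (-0.95 ± 0.46 (SE, adjusted p = 0.0953)). The part of these cell types in the age differences above was not tested.

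Genes of RNA-binding proteins were called in both directions. Of 41 tested (43 in all), 18 rose and 11 fell (median 0.43). The share that rose was above the 26.3% of all genes, and the share that fell was near the 22.4%. Rbfox1, a neuronal splicing regulator, measured 1.08, 2.03 and 0.486 FPKM at E13 and 45.1 and 35.6 FPKM at P0 (4.29 ± 0.27 (SE, adjusted p = 1.82e-09)), and Celf4 3.97, 2.89 and 5.38 FPKM at E13 and 82.8 and 80.3 FPKM at P0 (4.05 ± 0.32). The 3 insulin-like growth factor 2 mRNA-binding proteins, which are typical of embryonic tissue, all fell: Igf2bp1 measured 19.9, 17.3 and 23.3 FPKM at E13 and 1.10 and 1.82 FPKM at P0 (-3.11 ± 0.27), and Igf2bp2 and Igf2bp3 had differences of -3.35 ± 0.34 and -2.03 ± 0.22. Others that fell were Lin28b (-1.90 ± 0.27), which blocks let-7 processing, Ptbp1 (-1.15 ± 0.34), a repressor of neuronal exons, Celf1 (-1.02 ± 0.27), Zfp36l1 (-2.30 ± 0.25), Zfp36l2 (-0.60 ± 0.24), Hnrnpd (-0.78 ± 0.24), Msi2 (-1.03 ± 0.34) and Qk (-0.86 ± 0.33). General splicing factors fell for 16 of 36 members and rose for 1, Hnrnpa1 (0.91 ± 0.26), with a median of -0.71; without P0 c1 the count of lower members was 8. Srsf7 measured 105, 68.1 and 101 FPKM at E13 and 35.3 and 31.9 FPKM at P0 (-1.40 ± 0.23 (SE, adjusted p = 6.82e-05)), and Snrpf, a core protein of spliceosomal particles, 719.9, 490.1 and 541 FPKM at E13 and 182 and 152 FPKM at P0 (-1.78 ± 0.35).

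Of 28 textbook HuR target mRNAs tested (31 in all), 8 rose and 7 fell (median -0.10), shares near the 26.3% and 22.4% of all genes. The cyclins Ccnd1 (47.3, 72.8 and 58.9 FPKM at E13 and 11.1 and 10.7 FPKM at P0, -2.33 ± 0.22) and Ccnb1 (74.3, 61.2 and 64.8 FPKM at E13 and 5.13 and 7.60 FPKM at P0, -3.22 ± 0.34) fell with the other genes of division. Ccna2 and Ccne1 had differences of -3.43 ± 0.45 and -3.24 ± 0.36, and Cdkn1a (-1.13 ± 0.23), Trp53 (-1.04 ± 0.34) and Ptma (-1.02 ± 0.35) fell too. Gap43, Prkcc, a neuronal protein kinase C, and Ache, acetylcholinesterase, rose (2.80 ± 0.33, 2.95 ± 0.33 and 2.05 ± 0.37).

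Chromatin regulators were called in both directions. Of 31, 8 rose, a share near the 26.3% of all genes, and 11 fell (median -0.16). Among the lower ones, beside Hmga2, were Uhrf1, which maintains DNA methylation (39.0, 29.8 and 44.1 FPKM at E13 and 2.27 and 2.27 FPKM at P0, -3.54 ± 0.29 (SE, adjusted p = 2.44e-08)), and the Polycomb subunit Eed (-1.71 ± 0.22). The neuronal BAF subunits Actl6b (7.29, 22.9 and 14.8 FPKM at E13 and 111 and 103 FPKM at P0, 2.89 ± 0.47), Dpf1 (2.12 ± 0.24) and Ss18l1 (1.75 ± 0.29) rose, as did Smarca2 (2.46 ± 0.23) and Chd5 (2.48 ± 0.28). In glycolysis, 9 of 20 genes fell and 6 rose (median -0.53): Tpi1 measured 262, 231 and 256 FPKM at E13 and 54.6 and 39.8 FPKM at P0 (-2.39 ± 0.25 (SE, adjusted p = 4.13e-07)) and Ldha 241, 347 and 253 FPKM at E13 and 80.9 and 63.1 FPKM at P0 (-1.94 ± 0.34), whereas the neuronal enolase Eno2 measured 1.43, 2.55 and 4.28 FPKM at E13 and 20.5 and 18.6 FPKM at P0 (2.52 ± 0.29) and hexokinase Hk1 1.72, 4.43 and 3.79 FPKM at E13 and 15.96 and 13.3 FPKM at P0 (1.91 ± 0.34). The share of glycolysis genes that rose was near the 26.3% of all genes. Cholesterol synthesis genes rose for 6 of 22, a share near the 26.3% of all genes, and fell for 0 (median 0.24), with Sqle at 1.55 ± 0.27 and Mvd at 1.49 ± 0.29. Mitochondrial ribosomal protein genes fell for 22 of 57 and rose for 0 (median -0.44), or for 13 without P0 c1, with Mrps28 at 46.4, 39.6 and 34.0 FPKM at E13 and 15.8 and 12.6 FPKM at P0 (-1.43 ± 0.25 (SE, adjusted p = 0.000146)). Respiratory chain genes were called lower for 7 and higher for 3 of 73, and proteasome genes lower for 4 and higher for 2 of 31, shares under those of all genes. Without P0 c1 no respiratory chain or proteasome gene was called lower.

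Of 14 tested long non-coding RNAs (16 in all) 4 rose and 3 fell (median 0.37), shares near the 26.3% and 22.4% of all genes, and 1 rose without P0 c0. Rian measured 56.8, 68.6 and 81.2 FPKM at E13 and 603 and 813 FPKM at P0 (3.34 ± 0.29 (SE, adjusted p = 4.3e-08)), and Rmst, transcribed in progenitors, 10.8, 4.98 and 8.41 FPKM at E13 and 0.542 and 0.416 FPKM at P0 (-2.56 ± 0.35). Hosts of small nucleolar RNAs rose for 3 and fell for 1 of 10 (11 in all, median 0.33). The share that rose was near the 26.3% of all genes and the share that fell under the 22.4%. Snhg12 had a difference of 2.00 ± 0.41 and Snhg1 of -1.02 ± 0.32. Immediate early and stress genes rose for 5 and fell for 1 of 13 tested (22 in all; median 0.31). The activity-dependent factor Egr1 measured 2.12, 1.98 and 1.84 FPKM at E13 and 10.9 and 13.3 FPKM at P0 (2.13 ± 0.28 (SE, adjusted p = 5.75e-06)), Fos had 1.36 ± 0.28, and the chaperones Hspa8 and Hsph1 1.36 ± 0.27 and -0.94 ± 0.31.

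Cytoplasmic ribosomal protein mRNAs belong to the TOP class, whose transcripts begin with a run of pyrimidines at the cap that ties their translation to growth signals. The following windows reach 15 bases to either side of the annotated RefSeq start on GRCm38.p6, on the gene's own strand. They are given for 6 ribosomal protein genes and 3 neuronal genes that moved the other way in the comparison with polysomes. Capitals mark the longest run of C and T anywhere in the window. Only in Rpl7a and Rpl27a did that run cover the annotated start.
Rpl7a (chr2:26910792-26910821, plus strand): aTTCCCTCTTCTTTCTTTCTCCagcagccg
Rpl27a (chr7:109519180-109519209, plus strand): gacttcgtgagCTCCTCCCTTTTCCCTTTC
Rpl6 (chr5:121204486-121204515, plus strand): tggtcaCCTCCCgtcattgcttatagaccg
Rpl10 (chrX:74270801-74270830, plus strand): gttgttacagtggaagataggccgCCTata
Rpl36a (chrX:134585639-134585668, plus strand): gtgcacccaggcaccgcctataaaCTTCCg
Rps4x (chrX:102189377-102189406, minus strand): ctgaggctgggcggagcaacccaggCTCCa
Nrgn (chr9:37552731-37552760, minus strand): attggCTTCgaggccgcagggctcaggtta
Mapk8ip3 (chr17:24936963-24936992, minus strand): ggcgggaCTTCCggcaagggagtgacgggc
Dync1i1 (chr6:5725624-5725653, plus strand): agcctaggactgactgtccccgggTTCCCT
The longest run held 21 bases in Rpl7a, 19 in Rpl27a, 6 in Rpl6, 5 in Rpl36a, 4 in Rps4x and 3 in Rpl10, beside 4 in Nrgn, 5 in Mapk8ip3 and 6 in Dync1i1. The runs of 4 of the 6 ribosomal protein genes were thus no longer than the longest of the neuronal genes. A run of at least 8 such bases was found in 41.4% of 70 start sites of 59 ribosomal protein genes, 23.1% of 13 start sites of other TOP mRNAs, and 12.1% of 11158 start sites of tested genes; over all 32851 start sites the share was 12.0%. Only the strand of the gene was searched, and a run is a description of the letters, not of a working TOP element.

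Levels of the 82 ribosomal protein mRNAs in the monosome pool were high at either age. Their median was 5067, 3750 and 4158 FPKM in the E13 libraries and 6477 and 5511 FPKM in the P0 libraries, and they made up 37.4% to 44.5% of summed FPKM at E13 and 46.6% and 49.1% at P0. Both P0 medians were above all E13 medians, yet few single genes were called. Of the 82 genes 7 rose, all of the large subunit, and 2 fell, shares under the 26.3% and 22.4% of all genes. The differences of 77 were above 0, with a median of 0.48. Rpl21 measured 1741, 1175 and 1490.1 FPKM at E13 and 3326 and 2567 FPKM at P0 (1.01 ± 0.35 (SE, adjusted p = 0.0231)), and Rpl6 2511, 1987 and 2228 FPKM at E13 and 4173 and 3587 FPKM at P0 (0.79 ± 0.32 (SE, adjusted p = 0.0467)). With any one of the 5 monosome libraries left out, 0 to 2 ribosomal protein genes were called higher. The 2 that fell were Rpl26 (52.7, 26.8 and 71.0 FPKM at E13 and 16.6 and 15.9 FPKM at P0, -1.46 ± 0.40) and Rps27l, a p53-inducible relative of Rps27 (1687, 1008 and 1199.9 FPKM at E13 and 452 and 386 FPKM at P0, -1.60 ± 0.39). Ribosomal protein genes have many processed pseudogenes and strand is not kept by the kit, which leaves their levels uncertain.

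Of 57 translation factors tested (58 in all) 16 rose and 12 fell (median 0.11), shares near the 26.3% and 22.4% of all genes. Eif4a2, an initiation helicase, measured 103, 60.2 and 85.1 FPKM at E13 and 611 and 551 FPKM at P0 (2.83 ± 0.26 (SE, adjusted p = 9.57e-08)), and Eef2, the translocation factor, 1368, 1591 and 1834 FPKM at E13 and 4645 and 5009 FPKM at P0 (1.60 ± 0.30). Eif3e, a subunit of initiation factor 3, measured 345, 242 and 305 FPKM at E13 and 1086 and 923 FPKM at P0 (1.76 ± 0.31). Eif4ebp1, the inhibitor of cap binding controlled by mTOR, measured 75.9, 56.4 and 56.1 FPKM at E13 and 6.27 and 6.03 FPKM at P0 (-3.14 ± 0.35 (SE, adjusted p = 9.8e-07)), and Eif5a 946, 1656 and 1183 FPKM at E13 and 315 and 269.8 FPKM at P0 (-2.07 ± 0.32). Eef1a1, the elongation factor of most tissues, was listed at 15387, 12958 and 15649.9 FPKM at E13 and 0 and 0 FPKM at P0, while Eef1a2 rose as given above. At P0 Eef1a1 was also listed at 0 in the 3 WT monosome libraries, yet at 4065, 4661 and 4155 FPKM at E13 and 3502, 2456 and 2530.3 FPKM at P0 in polysome RNA labelled cKO. A value of 0 in whole groups can be a failed estimate, and no fold change is drawn from it. Other TOP mRNAs were called higher for 7 and lower for 2 of 17 (median 0.53), or higher for 4 without P0 c0.

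Genes listed at 0 in every library of a monosome group included Scrg1, at 0, 0 and 0 FPKM at E13 and 28.0 and 22.1 FPKM at P0, and Hsd3b6, at 31.96, 17.8 and 18.8 FPKM at E13 and 0 and 0 FPKM at P0. Tac2 was listed at 0, 0 and 0 FPKM at E13 and 6.73 and 7.44 FPKM at P0, Trpc5 at 0, 0 and 0 FPKM at E13 and 5.03 and 6.73 FPKM at P0, Inhba at 0, 0 and 0 FPKM at E13 and 4.67 and 6.02 FPKM at P0, and Neurog1 at 3.59, 8.02 and 5.42 FPKM at E13 and 0 and 0 FPKM at P0. For Scrg1, Tac2, Trpc5 and Inhba the zeros were all at E13, and for Hsd3b6 and Neurog1 all at P0.

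Whether the age difference of the monosome pool differed from that of the whole lysate was tested next. Of 12302 genes, limma called 1 (0.00813%), Eef1a1, which rests on its zeros. At an unadjusted p under 0.05 there were 1495 genes, and the median of the difference over all genes was -0.05. No gene list had another member called. The ribosomal protein genes had 81 of 82 differences above 0, with a median of 1.57 and 74 at an unadjusted p under 0.05. In total RNA their median level was 2590 and 2164 FPKM at E13 and 705, 1855 and 1267 FPKM at P0, so total RNA went down where monosome RNA went up, with median age differences of -1.12 and 0.48. P0 total c0 was far below the other P0 total libraries, and without it the median difference was 1.17.

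Set against polysomes, 959 genes had an age difference that differed from that of the monosome pool: 653 with a higher value in monosomes (5.31%) and 306 with a lower one (2.49%), over a median of -0.04. The comparison asked whether the age difference in FPKM differed between the pools. FPKM is relative within a library, and the amount of RNA in each pool is not among the values used here. Movement of mRNA between the pools was therefore not measured. Both contrasts are taken from different libraries, and the test is of their difference. It treats the libraries as independent, although fractions may come from the same lysate, which the column numbers cannot show. The number of calls was 196 without P0 monosome c0, 168 without P0 monosome c1, 347 without P0 polysome c1, 384 without P0 polysome c2 and 546 without E13 monosome c2.

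Ribosomal protein genes were the group with the largest count. Of 82, 46 had a higher age difference in monosomes and 0 a lower one, beside 5.31% and 2.49% of all genes; 80 were above 0, 75 had an unadjusted p under 0.05, and the median was 1.70. Their median level in polysome RNA was 2019, 1238 and 1211 FPKM at E13 and 676, 634 and 504 FPKM at P0. The polysome medians at P0 were all below those at E13, while the monosome medians were all above. They made up 18.9% to 24.3% of summed FPKM in E13 polysomes and 9.4% to 11.2% in P0 polysomes. For Rpl6, polysome RNA held 1463, 1505 and 1277 FPKM at E13 and 677, 615 and 516 FPKM at P0, and the difference between the age differences was 2.03 ± 0.43 (SE, adjusted p = 0.00909). Rpl10 measured 5023, 4018 and 4418 FPKM at E13 and 8759.8 and 7319.9 FPKM at P0 in monosomes and 2965, 2428 and 2221 FPKM at E13 and 1308, 1049 and 903 FPKM at P0 in polysomes, a difference of 2.07 ± 0.46 (SE, adjusted p = 0.0121). Rps25 of the small subunit measured 2039.6, 1087 and 1295 FPKM at E13 and 577, 721 and 632 FPKM at P0 in polysomes, with a difference of 1.92 ± 0.50 (SE, adjusted p = 0.0273). The calls were 0 without P0 monosome c0, 2 without P0 monosome c1, 4 without P0 polysome c2, 7 without P0 polysome c1, 14 without E13 monosome c2 and 21 without E13 monosome c1, while the medians over all single omissions stayed between 1.47 and 1.84.

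**Figure D3:**
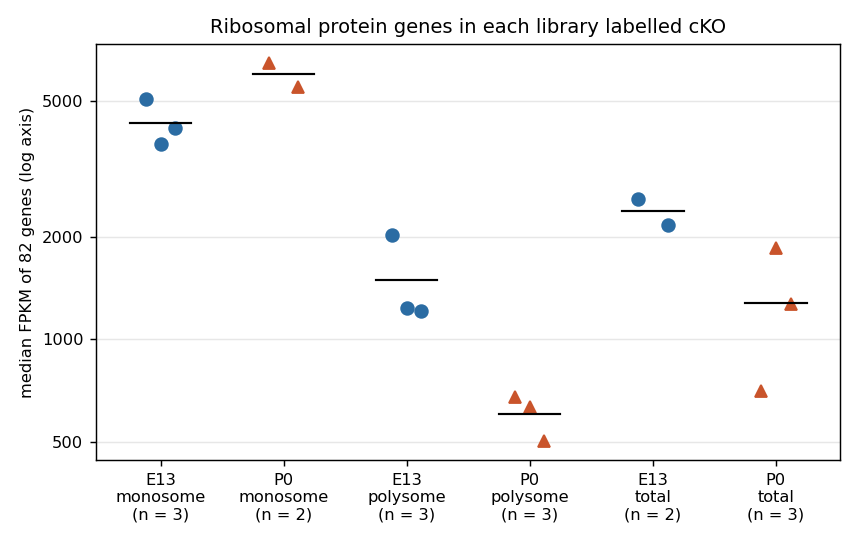
Median FPKM of 82 ribosomal protein genes in each library labelled cKO, on a log axis; circles are E13 and triangles P0 libraries, and lines are group means. Monosome medians rise from 3750 to 5067 FPKM at E13 to 5511 and 6477 FPKM at P0, whereas polysome medians fall from 1211 to 2019 FPKM to between 504 and 676 FPKM.

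Counts of other TOP mRNAs and of red blood cell genes leaned the same way. Of 17 other TOP mRNAs 10 were higher in monosomes and 1, Eef1a1, lower (median 1.42). Eif3e measured 128, 157 and 149 FPKM at E13 and 143, 125 and 114 FPKM at P0 in polysomes, a difference of 1.95 ± 0.42 (SE, adjusted p = 0.0105), and Hnrnpa1 had 1.69 ± 0.34 (SE, adjusted p = 0.008). Translation factors were higher for 9 and lower for 1 of 57 (median 0.30). The higher calls of TOP mRNAs all ended without P0 monosome c0, while the median of other TOP mRNAs stayed between 1.29 and 1.56 over the single omissions. Red blood cell genes were higher for 5 of 10 (median 2.75), or 2 without E13 monosome c2: Hba-a1 measured 1024, 1269 and 567 FPKM at E13 and 55.3, 76.6 and 33.9 FPKM at P0 in polysomes, a difference of 3.13 ± 0.61 (SE, adjusted p = 0.00652), and Hbb-b1 had 3.30 ± 0.56 (SE, adjusted p = 0.00281). Blood vessel genes were higher for 4 of 11 (median 1.2), including Pecam1 (2.25 ± 0.54 (SE, adjusted p = 0.0193)), or for 0 without P0 monosome c0. Bgn, the secreted proteoglycan biglycan, measured 17.1, 27.1 and 22.3 FPKM at E13 and 65.7 and 75.2 FPKM at P0 in monosomes and 22.4, 61.9 and 30.2 FPKM at E13 and 9.18, 5.87 and 7.25 FPKM at P0 in polysomes, so it went up in the first and down in the second (3.75 ± 0.49 (SE, adjusted p = 0.000643)). Stac2, an adaptor of calcium channels, measured 0.0533, 0.508 and 0.815 FPKM at E13 and 36.8 and 51.2 FPKM at P0 in monosomes and 0.536, 0.773 and 0.162 FPKM at E13 and 7.12, 3.68 and 4.72 FPKM at P0 in polysomes (2.93 ± 0.43 (SE, adjusted p = 0.00148)). Single neuronal genes called on this side, chosen after their values were seen, were Gabra5 (2.29 ± 0.44 (SE, adjusted p = 0.00578)), Hcn2 (2.27 ± 0.43 (SE, adjusted p = 0.00511)), Unc5a (2.19 ± 0.43 (SE, adjusted p = 0.00667)) and Sema3c (1.59 ± 0.38 (SE, adjusted p = 0.0179)). The non-coding RNA Rian, from the imprinted Dlk1-Dio3 region, had 2.39 ± 0.38 (SE, adjusted p = 0.00198).

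Vesicle release genes were the largest group on the other side, with 6 of 25 lower in monosomes and 0 higher (median -0.45). Snap25 measured 3.64, 2.73 and 4.07 FPKM at E13 and 223, 261 and 136 FPKM at P0 in polysomes, so it rose in both pools and more in polysomes (-1.80 ± 0.41 (SE, adjusted p = 0.0154)). Stx1a measured 7.24, 8.13 and 6.23 FPKM at E13 and 115, 116 and 96.6 FPKM at P0 in polysomes (-1.69 ± 0.32 (SE, adjusted p = 0.00511)), and Rab3a 21.3, 23.3 and 19.6 FPKM at E13 and 379.7, 419.5 and 382 FPKM at P0 (-1.55 ± 0.38 (SE, adjusted p = 0.0219)). Vamp2, the vesicle SNARE, measured 59.0, 62.8 and 71.9 FPKM at E13 and 245 and 191 FPKM at P0 in monosomes and 24.0, 30.7 and 22.6 FPKM at E13 and 287, 282 and 326 FPKM at P0 in polysomes (-1.76 ± 0.30 (SE, adjusted p = 0.00281)). At P0 the polysome values of these 4 genes lay above the monosome values, and at E13 those of Vamp2 lay below. Each value is relative to its own library and is not an amount of RNA in the pool. Nrgn, the calmodulin-binding neurogranin, measured 7.51, 10.2 and 3.49 FPKM at E13 and 39.3 and 30.7 FPKM at P0 in monosomes and 5.47, 5.55 and 1.51 FPKM at E13 and 127, 191 and 98.5 FPKM at P0 in polysomes (-2.58 ± 0.71 (SE, adjusted p = 0.0339)). Vsnl1, a neuronal calcium sensor, measured 2.48, 2.01 and 0.215 FPKM at E13 and 14.8 and 8.65 FPKM at P0 in monosomes and 0.291, 1.36 and 0.694 FPKM at E13 and 53.8, 58.0 and 41.1 FPKM at P0 in polysomes (-2.49 ± 0.52 (SE, adjusted p = 0.00882)). Mapk8ip3, a scaffold of axonal transport, measured 8.36, 10.8 and 10.5 FPKM at E13 and 10.5 and 10.6 FPKM at P0 in monosomes and 3.27, 7.49 and 5.10 FPKM at E13 and 32.8, 36.1 and 43.1 FPKM at P0 in polysomes (-2.57 ± 0.39 (SE, adjusted p = 0.00175)). Its monosome values overlapped between ages, while every P0 polysome library exceeded every E13 one. Dync1i1, a dynein intermediate chain, had -2.50 ± 0.53 (SE, adjusted p = 0.00939), Prrt2, a presynaptic membrane protein, -2.33 ± 0.35 (SE, adjusted p = 0.00154), and the small GTPase Rhof -2.37 ± 0.42 (SE, adjusted p = 0.00339). The transcription factor Pou3f1 (-1.55 ± 0.39 (SE, adjusted p = 0.0238)) and the chromatin remodeller Chd5 (-1.53 ± 0.38 (SE, adjusted p = 0.0223)) had lower differences as well. The call of Nrgn ended without either P0 monosome library or any P0 polysome library, and those of Dync1i1 and Vsnl1 without P0 monosome c1. Without P0 monosome c1, 2 vesicle release genes were called.

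**Figure D4:**
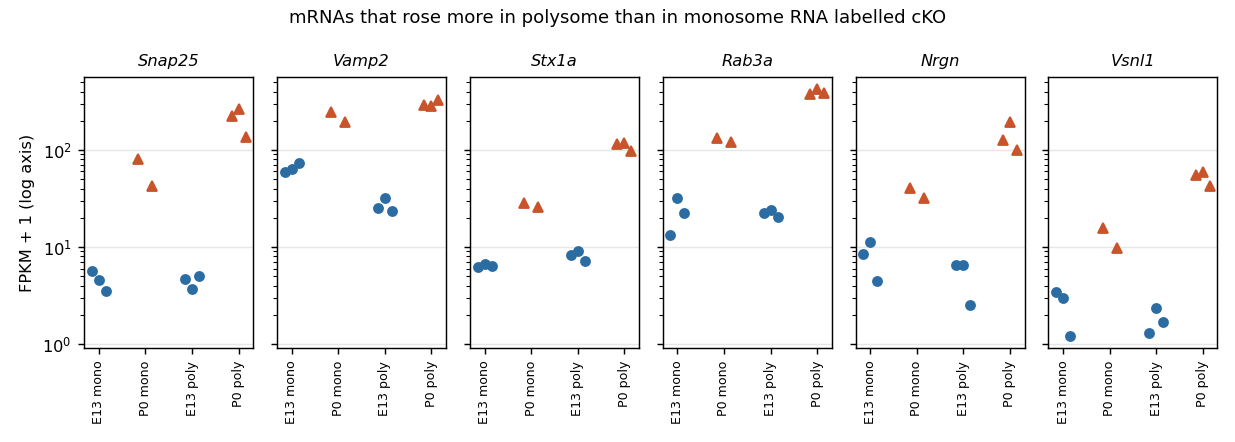
FPKM + 1 on a log axis in monosome (mono) and polysome (poly) RNA labelled cKO for 6 neuronal genes; circles are E13 and triangles P0 libraries. In each panel the P0 polysome libraries are highest, with Rab3a at 119 and 132 FPKM in P0 monosomes.

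Mitosis genes had 0 of 34 members called in either direction in this comparison (median 0.03), and neurite cytoskeleton genes 0 of 28 (median -0.57). Coding length was measured for 88.1% of tested genes from GENCODE M21. The genes higher in monosomes had a median coding length of 1108 bases, those lower 1506 bases and those not called 1422 bases, and ribosomal protein genes 453 bases. Across 10843 genes, which are not independent replicates, the Spearman correlation of coding length with the difference was -0.10. What length adds to the difference was not tested.

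**Figure D5:**
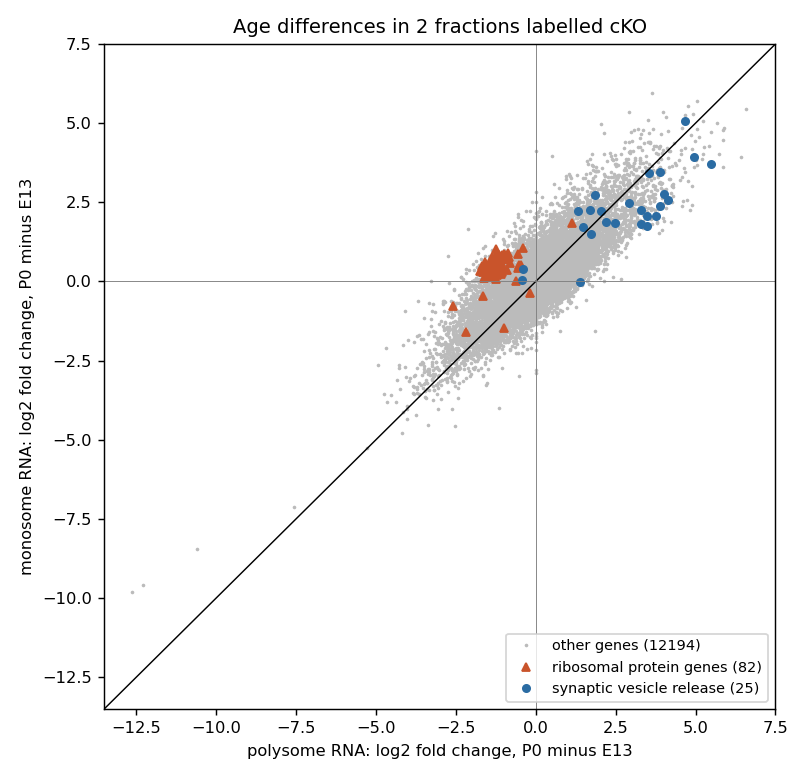
Log2 age difference (P0 minus E13) in monosome RNA against that in polysome RNA labelled cKO, each point a gene, with Eef1a1 left out; the diagonal marks equal differences. Ribosomal protein genes (triangles, median 0.48 in monosomes and -1.24 in polysomes) mostly sit above the diagonal and left of 0, and vesicle release genes (circles) mostly below it.

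Whether the monosome age difference depended on the genotype label was tested over all 31 libraries. Of 12233 genes, 35 were called (0.286%), 32 with a higher age difference in the libraries labelled cKO and 3 with a lower one. The median of all genes was 0.32, and 0.13 after scaling libraries by median ratios, so single values are read against that shift. Neurod6, a transcription factor of young projection neurons, measured 14.7, 27.6 and 18.98 FPKM at E13 and 358 and 360.4 FPKM at P0 in the libraries labelled cKO and 75.9 and 230.0 FPKM at E13 and 209, 278 and 180.1 FPKM at P0 in WT, a difference of 3.39 ± 0.57 (SE, adjusted p = 0.0107). Aldoc measured 7.26, 11.0 and 12.7 FPKM at E13 and 45.1 and 35.5 FPKM at P0 and, in WT, 38.0 and 40.5 FPKM at E13 and 14.8, 14.4 and 23.2 FPKM at P0 (3.05 ± 0.49 (SE, adjusted p = 0.00646)). Sstr2, a somatostatin receptor of migrating neurons, measured 5.98, 39.6 and 18.3 FPKM at E13 and 33.7 and 39.9 FPKM at P0 and, in WT, 56.0 and 95.9 FPKM at E13 and 11.3, 13.1 and 17.8 FPKM at P0 (3.42 ± 0.61 (SE, adjusted p = 0.0163)). The age differences labelled cKO and WT were 1.89 and -1.16 for Aldoc and 1.10 and -2.32 for Sstr2. Ppp1r1b, a phosphatase inhibitor of striatal neurons, measured 0, 0.627 and 0.254 FPKM at E13 and 8.21 and 7.57 FPKM at P0 and, in WT, 4.06 and 5.47 FPKM at E13 and 4.50, 4.87 and 6.67 FPKM at P0 (2.67 ± 0.55 (SE, adjusted p = 0.0316)). The globin entries Beta-s (14.8, 20.1 and 49.6 FPKM at E13 and 446 and 364 FPKM at P0, WT 116 and 402 FPKM at E13 and 129.7, 51.7 and 167 FPKM at P0) and Hbb-b1 (95.4, 74.99 and 82.7 FPKM at E13 and 84.1 and 85.1 FPKM at P0, WT 150.4 and 245 FPKM at E13 and 10.8, 9.53 and 30.2 FPKM at P0) differed by 5.02 ± 1.005 (SE, adjusted p = 0.0305) and 3.63 ± 0.80 (SE, adjusted p = 0.0431). On the lower side, Slc25a37 measured 15.3 and 11.8 FPKM at E13 and 2.64, 2.82 and 2.06 FPKM at P0 in WT (-1.98 ± 0.41 (SE, adjusted p = 0.0328)), and Fam84b measured 20.2, 20.1 and 11.5 FPKM at E13 and 5.43 and 5.18 FPKM at P0 and, in WT, 8.35 and 3.75 FPKM at E13 and 9.06, 8.47 and 6.04 FPKM at P0 (-1.89 ± 0.39 (SE, adjusted p = 0.0316)). The third lower gene was the predicted gene Gm12839, named after its value was seen. In the libraries labelled cKO it was listed at 41.1, 16.8 and 4.44 FPKM at E13 and 0 and 0 FPKM at P0. A value of 0 in a whole group can be a failed estimate, and no difference is drawn from it. With genes listed at 0 left out, 2 genes were called lower. The E13 values labelled cKO and WT, which may have been scaled separately, did not overlap for any of these 8 named genes. The count rests on single libraries: it was 0 without WT E13 1 or without P0 c0, 3 without WT P0 0 or P0 c1, 5 without WT P0 1, 14 without E13 c0, 22 without E13 c2, 125 without WT E13 0 and 219 without E13 c1. After median ratio scaling 9 genes were called. At an unadjusted p under 0.05 there were 1799 genes. Ribosomal protein genes had 0 of 82 called, with medians of 0.95 for the large and 1.01 for the small subunit.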

How the data were processed

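Neocortex RNA of 31 libraries was sequenced, of which 5 were monosome libraries labelled cKO. Per the labels, the authors used the TruSeq v2 kit and paired reads, and per the submitters' processing notes Bowtie2 2.0.5.0, TopHat2 2.0.6 and Cuffdiff, with mm10 and GRCm38 as builds. For the gene annotation and the scaling of libraries, no statement is given in the sources used here. All deposited values are FPKM, in one table for each genotype, with 23284 rows, of which 26 with dates or numbers for names were left out. Columns labelled cKO are numbered from 0 and titles from 1, so each was mapped to its group only.

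From these, log2(FPKM + 1) was tested with limma 3.58.1 in R 4.3.3 (intensity trend, two-sided, Benjamini-Hochberg over all genes tested, adjusted p under 0.05), for genes with a mean of at least 1 FPKM. The fit of the 16 libraries labelled cKO in 6 groups had 10 residual degrees of freedom, and the fit of 31 libraries in 12 groups had 19. Where a P0 monosome library is left out, the lone library is assumed to vary like the other groups. The script was tested on simulated data.

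The libraries and the 42 gene lists (1029 members, 1020 matched by symbol, 7 by a synonym, 2 not at all) were chosen with earlier results of these data known. Named are Elavl1, for the age difference the 10 called genes with the largest difference in each direction, and 6 for each difference of age differences. These had at least 5 FPKM in a group and separate groups, or the same sign without each library; predicted and small RNA genes and genes listed at 0 in a whole group were excluded. Of each list up to 6 members in order of adjusted p and those against most of their list are named; further members were chosen after their values were seen, and some genes that the rule names are not reported here. Alternatives were a pseudocount of 0.1 FPKM, filters of 5 FPKM or none, median ratio scaling, no trend, the groups of the contrast only, genes listed at 0 left out, a replicate block, and each library left out.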

Additional observations from a re-analysis of the deposited data

Results flagged for a closer look

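Age differences that differed between fractions or between genotype labels, each by a limma test of the difference itself, are given here with no weighing of explanations. Between monosome and total RNA labelled cKO 1 gene was called, between monosome and polysome RNA 959, and between monosome RNA labelled cKO and WT 35.

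In the comparison of monosome with polysome RNA, the named genes with a higher age difference in monosomes were Bgn (3.75), Beta-s (3.46), Hbb-b1 (3.30), Hba-a1 (3.13), Stac2 (2.93) and Hbb-y (2.81). The age differences in monosomes and polysomes were 3.98 and 0.51 for Beta-s, 4.96 and 2.03 for Stac2, and -9.81 and -12.62 for Hbb-y, which fell in both. Those with a lower one were Nrgn (-2.58), Mapk8ip3 (-2.57), Dync1i1 (-2.50), Vsnl1 (-2.49), Rhof (-2.37) and Prrt2 (-2.33). Each of these except Mapk8ip3 was called higher at P0 in monosomes, with 3.92 against 6.43 in polysomes for Dync1i1.

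In the comparison of genotype labels, the named genes with a higher age difference in the libraries labelled cKO were Beta-s (5.02), Hbb-b1 (3.63), Sstr2 (3.42), Neurod6 (3.39), Aldoc (3.05) and Ppp1r1b (2.67), and those with a lower one Slc25a37 (-1.98) and Fam84b (-1.89). All 8 calls ended without WT E13 monosome 1 or without P0 monosome c0.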

How the results depend on the processing

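The tables hold no counts, so precision at low FPKM cannot be stated. The count of the age difference, 5986, lay within 1.5 times of that value under every alternative, with 4235 to 5633 genes when each library was left out in turn. Of the results for single genes of the age difference, 3 changed sign, none of them called: Slc17a6 ranged from -0.13 without E13 c1 to 0.18 over the single omissions, and Kcne2 from -0.12 without E13 c2, with -0.10 without P0 c0, to 0.42. Calls of age-difference genes were lost in 96 of the single omissions, 10 with the replicate block and 1 with the other pseudocount; calls of the named differences of age differences were lost in 60, 1 and 6, and in 3 after rescaling. For monosome minus total RNA the count was 12 with no filter, 0 with genes listed at 0 left out (which removes Eef1a1) and 1 to 3 in the single omissions. For monosome minus polysome RNA the single omissions gave 168 to 1142 genes. For the genotype labels the count was 21 with a pseudocount of 0.1 FPKM, 78 with no filter, 9 after median ratio rescaling, 3 with only the groups of the contrast, and 0 to 219 in the single omissions. The cause of these changes was not tested.

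For monosome and polysome RNA of equal replicate number, deviations from group means correlated weakly. The values lay between -0.042 and 0.255 at E13 and were -0.165 and -0.274 at P0. In groups this small they cannot decide whether equal numbers share a lysate. Summed FPKM of sex-linked genes at E13 was lowest in c1 of both pools. That of red blood cell genes at E13 fell from c0 to c2 in both. At P0 both sums were higher in c0 than in c1 of monosomes, but lower in c0 than in c1 of polysomes. The sex-linked sum was 52.4 FPKM in P0 monosome c0 and 0.170 FPKM in P0 polysome c0. At E13 it was 25.1 FPKM in monosome c0 and 2.40 FPKM in total c0. In these cases equal numbers did not mark tissue of like sex-linked levels. A block on the replicate number gave 5662 genes for the age difference, 2 for monosome minus total, 518 for monosome minus polysome and 111 for the genotype labels. With it 9 ribosomal protein genes were called against polysomes, beside 46 without it. These counts are not a correction for shared lysates.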
